A study of Mus musculus with 8 samples.

Results

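The genes described here are 10 marker genes of macrophages, Csf1r, Ms4a7, Aif1, Cd68, Adgre1, Cd163, Mrc1, Itgam, Cd14 and Lyz2, read in whole mouse kidney on 60-base array probes. All non-control probes that the array names for these genes were taken, which gave 19 probes for 10 of the 36868 gene names on the array. The 8 kidneys came from male mice 20 weeks old of the strain written C57BLKS/J Iar in the labels, in 4 groups of 2 mice each. The mimic group were db/db mice (+Leprdb/+Leprdb) given nanoparticles, labelled PEI-NPs, with a mimic of miR-181b-5p. The control miRNA group were db/db mice given the same kind of nanoparticles with a control miRNA. The untreated db/db group had the same genotype and no nanoparticles, and the normal group were m+/m+ mice. The db allele disrupts the signalling form of the leptin receptor, which makes the mice obese and diabetic. In the notation of this strain m is the misty coat allele, carried on the chromosome with the working leptin receptor, so the 2 genotypes differ at that locus as well. How the nanoparticles were dosed and given is not stated in these sources.

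Kidney holds resident macrophages between the tubules, and monocytes from the blood can add to them when the tissue is injured. Csf1r is the receptor for the growth factors CSF1 and IL34, on which macrophages depend for survival. Adgre1 encodes an adhesion receptor widely used as the mouse macrophage antigen, Cd68 a glycoprotein of the endosome and lysosome, Mrc1 the mannose receptor and Cd163 the receptor that takes up haemoglobin bound to haptoglobin. Itgam encodes the CD11b chain of the integrin Mac-1, which monocytes, neutrophils and some NK cells carry too. Cd14 is a co-receptor for bacterial lipopolysaccharide, Lyz2 a lysozyme of macrophages and neutrophils, Aif1 the calcium-binding protein IBA1 and Ms4a7 a membrane protein of the MS4A family. In macrophage biology the whole-tissue level of such genes is used as a measure of macrophage content. In whole kidney, fewer cells of a type and less RNA per cell cannot be told apart.

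Levels are log2 values of the spot intensity over the 75th percentile of its array, so that 0 is that percentile, and changes are differences of group means on this scale. The share of spots well above background was 56.5% to 62.5% over the 8 arrays, and 0 spots were saturated. A pair of replicates differed by more than 2-fold at 164 genes in untreated db/db mice, 358 after control miRNA, 683 in normal mice and 2470 after the mimic, where replicate 1 stood apart from replicate 2. All 8 arrays lay on 1 slide, with the nanoparticle groups in row 2 and the other groups in row 1, so row and nanoparticle treatment cannot be told apart. Normal and control miRNA arrays lay in columns 1 and 2, and untreated db/db and mimic arrays in columns 3 and 4. Column therefore cannot be told apart from untreated db/db against normal, or from mimic against control miRNA. Lepr, the mutated gene, had a level of 1.98 and 2.35 after the mimic, 2.36 and 2.11 after control miRNA, 2.29 and 2.30 in untreated db/db mice, against 3.12 and 3.08 in normal mice. Both arrays of each db/db group thus lay below both normal arrays, and the difference passed for the mimic group alone (adjusted p = 0.0253 against normal). A comparison of 2 arrays with 2 cannot give an exact permutation p below 0.333, so each adjusted p rests on the variance that the linear model shares over all 4 groups and 22368 genes.

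Of the 19 member probes, 14 were tested, because in 1 or more groups both arrays lay well above background, and they stand for 9 genes. The other 5 were not tested. Both Cd163 probes were well above background on 0 of 8 arrays, so Cd163 was not measured. The same held for 1 of 2 Adgre1 probes and 1 of 3 Cd68 probes, while the second Itgam probe was well above background on 3 of 8 arrays. For the remaining 9 genes the brightest probe was well above background on all 8 arrays.

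The probes are shown for the genes whose results turn on what the probe reads. Ms4a7 was read by 2 probes on chromosome 19, at chr19:11395903-11395962 and chr19:11396004-11396063 (mm9, minus strand). The array annotation starts them at bases 1142 and 744 of a transcript. These positions lie further apart than the probes do on the genome, so they are not counted in the same transcript. The first 30 bases of the probes, 5′ to 3′, are different stretches of the mRNA.
Ms4a7 probe 1: agcagagtacagctagacttgcctgaaatc
Ms4a7 probe 2: ttcttgcctcaatcacaagatcatacccaa

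Itgam was also read by 2 probes, and they differ in kind. The bright one lies at chr7:135261755-135261814 (mm9, plus strand) and starts at base 4431 of the transcript. It opens with a run of 10 CA units, in capitals below, of which the other member probes held at most 2. The dim one lies at chr7:135212140-135212199 and starts at base 270. Of probes with a run of at least 9 CA units, 30 bases each are shown for the 3 whose pattern over the arrays was nearest to the bright Itgam probe, with the CA run in capitals. They belong to Nalcn, a sodium leak channel on chromosome 14, Idua, a lysosomal iduronidase on chromosome 5, and Clasp2, a microtubule-binding protein on chromosome 9.
Itgam probe 1, bases 1 to 30: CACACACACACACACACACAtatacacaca
Itgam probe 2, bases 1 to 60: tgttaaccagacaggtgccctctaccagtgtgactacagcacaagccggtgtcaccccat
Nalcn probe, bases 12 to 41: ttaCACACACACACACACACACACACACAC
Idua probe, bases 1 to 30: CACACACACACACACACACAgagtctaaat
Clasp2 probe, bases 1 to 30: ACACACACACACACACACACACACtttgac

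Untreated db/db kidneys had lower levels of 2 macrophage genes than normal kidneys, Ms4a7 and Csf1r. Ms4a7 was 3.45-fold lower and Csf1r 2.39-fold lower. All 9 measured members had a change below 0, with a median of -1.20 on the log2 scale, beside a median of -0.04 over all genes tested. That median is the value of Itgam, whose probe holds a CA repeat, and without Itgam the median of the other 8 was -1.03. Over all 14 tested member probes the median was -0.74, beside -0.06 over all probes. Of the members 2 of 9 passed as lower and 0 as higher, and of all genes tested 2.26% passed as lower.

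Ms4a7 probe 1 had a level of -2.84 and -2.67 after the mimic, -1.75 and -2.18 after control miRNA, -2.75 and -2.73 in untreated db/db mice, and -0.93 and -0.98 in normal mice. No db/db array reached the normal arrays, and the control miRNA arrays lay above those of the mimic and untreated groups. Its change between untreated db/db and normal mice was -1.78 ± 0.16 (SE, adjusted p = 0.0114), the lowest of the 9 members. Probe 2 gave -4.42 and -4.70 after the mimic, -3.22 and -3.22 after control miRNA, -4.40 and -4.48 in untreated db/db mice, and -2.22 and -2.44 in normal mice. It ordered the groups in the same way and fell by 2.11, with an adjusted p of 0.00438 over all probes tested.

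Csf1r probe 1, which starts at base 3806 of the transcript on chromosome 18, had a level of 3.03 and 2.52 after the mimic, 2.66 and 2.59 after control miRNA, 2.55 and 2.58 in untreated db/db mice, and 3.88 and 3.75 in normal mice. The 2 mimic arrays lay on either side of all other db/db arrays, and both control miRNA arrays lay above both untreated arrays. All db/db arrays lay below the normal arrays. Its change between untreated db/db and normal mice was -1.26 ± 0.18 (SE, adjusted p = 0.0276). Probe 2, which the array annotation starts at base 1841, did not follow probe 1. It gave -1.07 and -0.92 after the mimic, -0.74 and -0.97 after control miRNA, -0.89 and -0.67 in untreated db/db mice, and -0.71 and -0.50 in normal mice. Its change was -0.17 ± 0.16 (adjusted p = 0.526), so the call of Csf1r rested on 1 of its 2 probes.

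**Figure D1:**
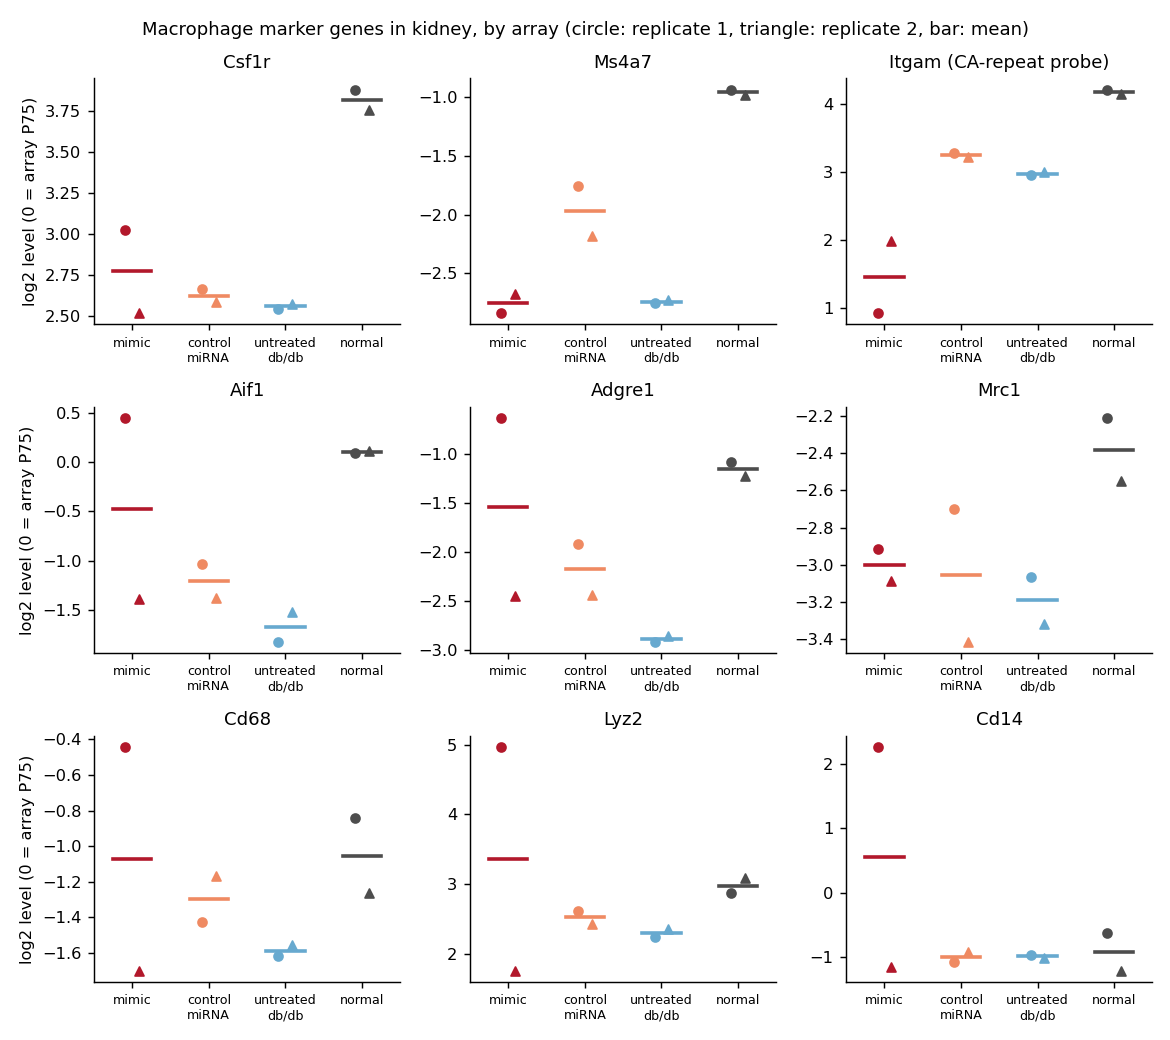
Level of the brightest probe of the 9 measured members on each array (vertical axis, log2 intensity over the 75th percentile of the array, own scale per gene) in the mimic, control miRNA, untreated db/db and normal groups (horizontal axis, circle for replicate 1, triangle for replicate 2, bar for the mean). Csf1r, Ms4a7, Itgam and Mrc1 had every db/db array below both normal arrays, while mimic replicate 1 reached or passed the normal arrays for Aif1, Adgre1, Cd68, Lyz2 and Cd14. The share of all genes separated in this way was not counted.

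Aif1 and Adgre1 differed from normal by as much as Ms4a7, but with a larger error. Aif1 had a level of 0.44 and -1.39 after the mimic, -1.03 and -1.38 after control miRNA, -1.82 and -1.52 in untreated db/db mice, and 0.09 and 0.11 in normal mice. Its change between untreated db/db and normal mice was -1.77 ± 0.54 (SE, adjusted p = 0.118), and the groups did not overlap. Adgre1 had a level of -0.64 and -2.45 after the mimic, -1.91 and -2.44 after control miRNA, -2.91 and -2.85 in untreated db/db mice, and -1.08 and -1.22 in normal mice. Its change was -1.73 ± 0.55 (adjusted p = 0.124), again with no overlap. Here and for the other members, the share of all genes whose groups do not overlap was not counted, so this is a description. Most of the error of Aif1 and Adgre1 came from the mimic pair, whose replicates were 3.55-fold apart for Aif1 and 3.51-fold apart for Adgre1. When either mimic array was left out of the fit, Aif1 (adjusted p = 0.00601), Adgre1 (adjusted p = 0.00809), Itgam (adjusted p = 0.00567) and Lyz2 (adjusted p = 0.0279) passed as well. In that fit 6 of 9 members passed as lower in untreated db/db mice, as did 8.95% of all genes.

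Mrc1, Cd68, Lyz2 and Cd14 gave smaller differences. Mrc1 had a level of -2.92 and -3.09 after the mimic, -2.70 and -3.41 after control miRNA, -3.06 and -3.32 in untreated db/db mice, and -2.21 and -2.55 in normal mice. Its change between untreated db/db and normal mice was -0.81 ± 0.26 (adjusted p = 0.129). Every db/db array lay below both normal arrays. Cd68 probe 1 gave -0.44 and -1.70 after the mimic, -1.42 and -1.17 after control miRNA, -1.62 and -1.55 in untreated db/db mice, and -0.84 and -1.26 in normal mice (change -0.53 ± 0.40, adjusted p = 0.450). Cd68 probe 2 differed by -0.39 ± 0.60. The untreated and normal arrays of Cd68 probe 1 did not overlap, and those of the control miRNA group overlapped with normal.

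Lyz2 probe 1 gave 4.96 and 1.76 after the mimic, 2.61 and 2.43 after control miRNA, 2.23 and 2.36 in untreated db/db mice, and 2.87 and 3.08 in normal mice (change of untreated db/db against normal -0.68 ± 0.92, adjusted p = 0.689). The untreated arrays lay below the normal ones, and the 2 mimic arrays were the highest and the lowest of the 8. Cd14 probe 1 gave 2.25 and -1.15 after the mimic, -1.08 and -0.92 after control miRNA, -0.96 and -1.01 in untreated db/db mice, and -0.63 and -1.21 in normal mice (change -0.07 ± 0.98, 95% interval -2.46 to 2.32). Apart from mimic replicate 1 its arrays overlapped.

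Read probe by probe, 3 of 14 member probes passed as lower in untreated db/db mice against 2.9% of all 33639 probes tested. They were both Ms4a7 probes and Csf1r probe 1. The Ms4a7 and Csf1r calls did not hold without single arrays. Without either normal or either untreated array, the adjusted p of Ms4a7 was 0.0701 to 0.111 and that of Csf1r 0.109 to 0.174, and without either control miRNA array that of Csf1r was 0.0709. The changes themselves stayed between -1.81 and -1.76 for Ms4a7 and between -1.32 and -1.19 for Csf1r.

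**Figure D2:**
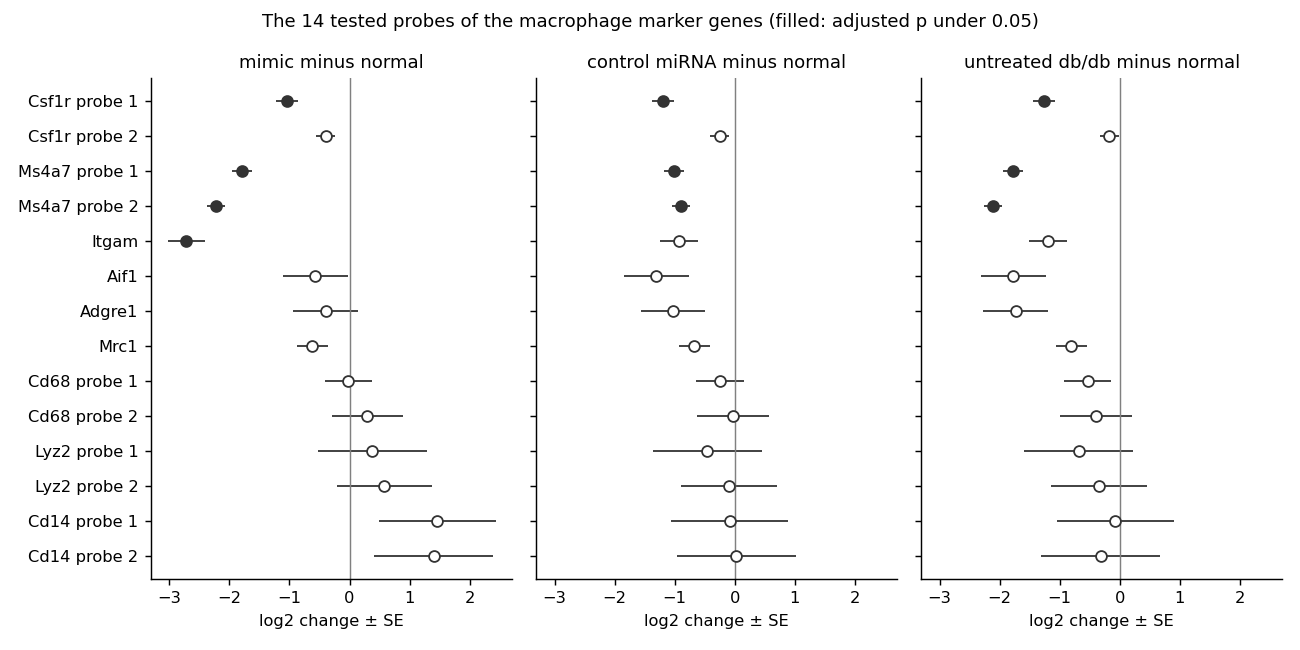
Change of each of the 14 tested member probes (rows) against normal mice, with its standard error (horizontal axis, log2), for the mimic, control miRNA and untreated db/db groups (panels from left to right); filled points have an adjusted p under 0.05. Both Ms4a7 probes and Csf1r probe 1 are filled in all 3 panels, Itgam in the mimic panel, and Csf1r probe 2 in none.

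The other db/db groups gave lower levels of the same genes, but all 3 comparisons share the 2 normal mice and are not independent of each other. After control miRNA, Csf1r was 2.29-fold lower than in normal mice (change -1.19 ± 0.18, adjusted p = 0.0385) and Ms4a7 2.01-fold lower (change -1.01 ± 0.16, adjusted p = 0.0461). These were 2 of 9 members, beside 1.19% of all genes called lower, and 3 of 14 probes, beside 1.11% of all probes. All 9 members again had a change below 0, with a median of -0.93 beside -0.04 over all genes. Leaving out any array other than those of the mimic pair ended both calls, with an adjusted p of 0.110 to 0.221 for Csf1r and 0.103 to 0.213 for Ms4a7.

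After the mimic, Ms4a7 was 3.48-fold lower than in normal mice (change -1.80 ± 0.16, adjusted p = 0.00601), Csf1r 2.06-fold lower (change -1.04 ± 0.18, adjusted p = 0.0250) and Itgam 6.58-fold lower (change -2.72 ± 0.32, adjusted p = 0.00881). They made 3 of 9 members, beside 5.93% of all genes called lower, and 4 of 14 probes, beside 5.72% of all probes. The median of the 9 members was -0.57, beside -0.09 over all genes, and 7 of 9 lay below 0. That median was -1.30 without mimic replicate 1 and 0.34 without mimic replicate 2. Ms4a7 passed in this comparison whichever array was left out, with an adjusted p of 0.00304 to 0.0471. In a fit of the 4 mimic and normal arrays alone 0 members passed, with an adjusted p of 0.0714 for Ms4a7, 0.0862 for Itgam and 0.160 for Csf1r. Csf1r was lost without any array of the other 3 groups (adjusted p 0.0577 to 0.112), and Itgam without either normal array, where its highest adjusted p was 0.0619.

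The Itgam value does not stand alone. Itgam probe 1 had a level of 0.93 and 1.98 after the mimic, 3.27 and 3.22 after control miRNA, 2.95 and 3.00 in untreated db/db mice, and 4.21 and 4.14 in normal mice. No 2 groups overlapped. The array holds 36 other probes, under 36 other gene names, with a run of at least 9 CA units, and their levels followed those of Itgam probe 1. Between mimic and normal mice their median change was -2.60 (range -3.53 to -1.41), and 34 of 36 passed as lower. Between mimic and control miRNA it was -1.62, where Itgam gave -1.79. Between untreated db/db and normal mice it was -1.16, where Itgam gave -1.20, and between control miRNA and normal mice -0.99, where Itgam gave -0.93. The set of CA-repeat probes was chosen after the Itgam values were seen, so these values are a description.

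The 6 genes nearest to Itgam probe 1, by the root mean square difference over the 8 arrays after each gene is centred on its mean, were all read by probes with 9 or more CA units. Nalcn stood at 0.037, Idua and Clasp2 at 0.040, then AA522020, Snap25 and Mcidas up to 0.051 on the log2 scale. The probe matched a probe of another gene, Proser3, at 41 of 60 bases without gaps, against 31 to 35 of 60 for the other member probes. Itgam probe 2, which holds no such run, had a level of -4.88 and -4.51 after the mimic, -5.45 and -4.95 after control miRNA, -4.73 and -5.06 in untreated db/db mice, and -4.84 and -4.45 in normal mice. It was near background and its groups overlapped. Without the CA-repeat probes 2 members passed as lower after the mimic, against the 3 named above. Itgam was not tested in that setting, because probe 2 did not pass the background filter, so its loss there was fixed in advance. What the repeat run contributes to the signal of Itgam probe 1 was not tested.

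**Figure D3:**
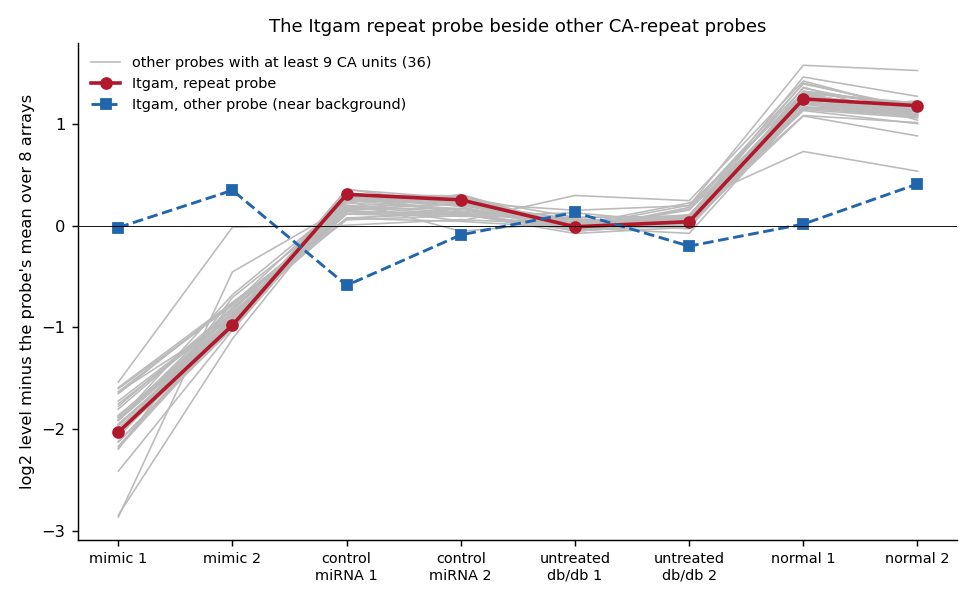
Level of the bright Itgam probe (red), of the 36 other probes with at least 9 CA units (grey) and of the dim Itgam probe (blue, dashed), each minus its own mean over the 8 arrays (vertical axis, log2), on each array (horizontal axis). The red line runs within the grey ones, with both mimic arrays low and both normal arrays high, and the dashed line does not follow them.

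No member passed between the db/db groups. The mimic was compared with the control miRNA to ask what the mimic itself changes, and 0 of 9 members passed, as did 0% of all genes (smallest adjusted p 0.140), while 2082 genes and 2 members, Ms4a7 and Itgam, had an unadjusted limma p under 0.05. The mimic against untreated db/db mice gave 0 of 9 members and 0% of all genes, with 3104 genes and 2 members, Itgam and Adgre1, under an unadjusted 0.05. The control miRNA against untreated db/db mice gave 0 of 9 and 0% of all genes, with 724 genes and 1 member, Ms4a7, under it.

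Ms4a7 had its highest db/db levels in the control miRNA group, as had Itgam probe 1. Ms4a7 probe 1 was 1.71-fold higher in the control miRNA group than in untreated db/db mice (change 0.78 ± 0.16, adjusted p = 0.99985), and probe 2 was 2.33-fold higher (change 1.22 ± 0.15, adjusted p = 0.818 over all probes). In the mimic group probe 1 was 1.73-fold lower than in the control miRNA group (change -0.79 ± 0.16, adjusted p = 0.215) and probe 2 2.53-fold lower (change -1.34 ± 0.15, adjusted p = 0.154). On both Ms4a7 probes the 2 control miRNA arrays lay above all 4 other db/db arrays and below both normal arrays. None of these differences passed. The mimic and untreated groups differed by -0.01 (95% interval -0.41 to 0.39) on probe 1.

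The mimic replicates lay on opposite sides of the control miRNA mean, each outside the range of the 2 control miRNA arrays, for Cd14, Lyz2, Aif1, Adgre1, Cd68 and Csf1r. Replicate 1 was 9.49-fold above the control miRNA mean for Cd14, 5.43-fold for Lyz2, 3.13-fold for Aif1, 2.90-fold for Adgre1, 1.81-fold for Cd68 and 1.32-fold for Csf1r. Replicate 2 lay below that mean for all 6 on the log2 scale, by 0.16 for Cd14, 0.76 for Lyz2 and 0.10 for Csf1r. The gap was 0.18 for Aif1, 0.27 for Adgre1 and 0.40 for Cd68. For Aif1 replicate 2 stood at -1.39, close to the lower control miRNA array at -1.38. For Adgre1 it stood at -2.45, close to the lower control miRNA array at -2.44. The second probes of Cd14 and Lyz2 showed the same split. Cd14 probe 2 gave 1.61 and -1.84 after the mimic, and -1.55 and -1.43 after control miRNA. Lyz2 probe 2 gave -0.54 and -3.34 after the mimic, and -2.75 and -2.49 after control miRNA. Ms4a7 showed no such split, with both mimic replicates below the control mean, by 0.87 and 0.71, and Mrc1 replicate 1 lay within the range of the control miRNA arrays.

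Of these members, Cd14, Lyz2, Aif1, Adgre1 and Cd68 changed sign against normal mice with the mimic array used, and Csf1r did not. With replicate 2 alone in the mimic group, Lyz2 stood at -1.22 (adjusted p = 0.0138), Aif1 at -1.49 (adjusted p = 0.0159) and Adgre1 at -1.30 (adjusted p = 0.0316) against normal mice, and 6 members passed as lower, beside 5.15% of all genes. With replicate 1 alone, Cd14 stood at 3.17 and Lyz2 at 1.98 against normal mice. In the same fit Itgam stood at -3.24, Ms4a7 at -1.88 and Csf1r at -0.79. Against the control miRNA, replicate 1 alone gave 6 members past the threshold, in both directions. Aif1, Adgre1, Cd14 and Lyz2 were higher, beside 5.76% of all genes, and Ms4a7 and Itgam lower, beside 8.04%. Replicate 2 alone gave 1, Itgam, lower, beside 0.17% of all genes. In both fits the lone mimic array is assumed to vary like the other groups.

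**Figure D4:**
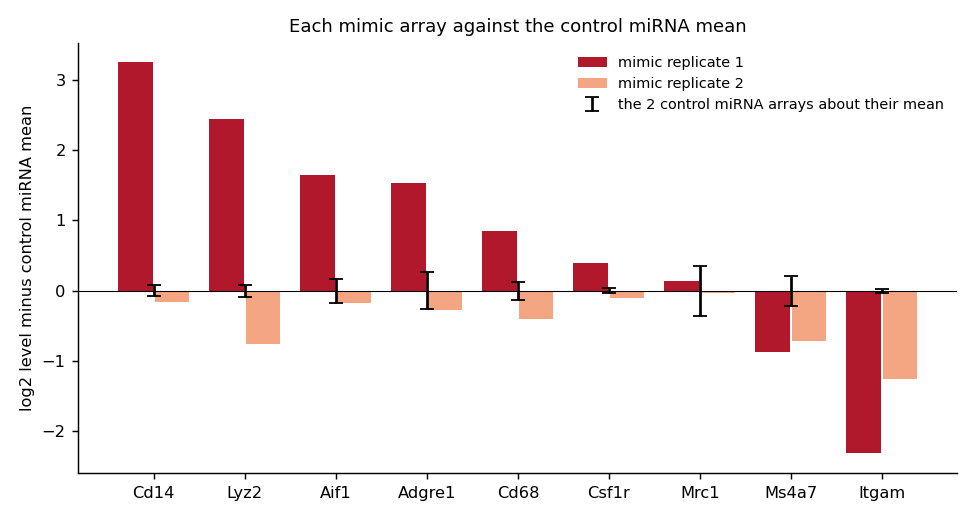
Level of each member on mimic replicate 1 (dark bars) and mimic replicate 2 (light bars) minus the mean of the 2 control miRNA arrays (vertical axis, log2); the black interval spans the 2 control miRNA arrays about their mean. Cd14, Lyz2, Aif1, Adgre1 and Cd68 were high on replicate 1 and below the control mean on replicate 2, while Ms4a7 and Itgam lay below it on both.

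Genes of other leukocytes stood beside this split. The 10 pan-leukocyte genes had a summed level of 16.7 and 6.68 after the mimic, 8.51 and 7.70 after control miRNA, 7.06 and 6.99 in untreated db/db mice, and 12.3 and 10.9 in normal mice, in units of the 75th percentile of the array. The 9 macrophage members summed to 49.0 and 14.7 after the mimic, 24.1 and 22.6 after control miRNA, 19.8 and 20.7 in untreated db/db mice, and 44.0 and 42.7 in normal mice. Bright probes carry this sum: Lyz2 alone made 31.2 of the 49.0, and Itgam 18.5 of the 44.0. Without both, the other 7 summed to 15.9 and 7.34 after the mimic, 8.39 and 7.86 after control miRNA, 7.36 and 7.54 in untreated db/db mice, and 18.2 and 16.5 in normal mice. Ptprc, which encodes CD45, did not share the split, with a level of 0.85 and 0.60 after the mimic, against 0.90 and 1.03 after control miRNA. Of the 10 genes 0 passed in each of the 6 comparisons, and all 10 had a change below 0 in untreated db/db against normal mice (median -0.56). Neutrophil genes, of which 10 of 11 were measured, summed to 63.6 and 29.1 after the mimic, 31.7 and 33.1 after control miRNA, 29.7 and 27.2 in untreated db/db mice, and 40.3 and 37.2 in normal mice. Interferon-response genes, with 12 of 13 measured, summed to 48.8 and 10.3 after the mimic, 12.7 and 8.99 after control miRNA, 7.67 and 7.52 in untreated db/db mice, and 13.7 and 15.3 in normal mice. Of both lists 0 genes passed in the comparisons with normal mice. All 4 sums were high on mimic replicate 1, and their part in the macrophage values was not tested.

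**Figure D5:**
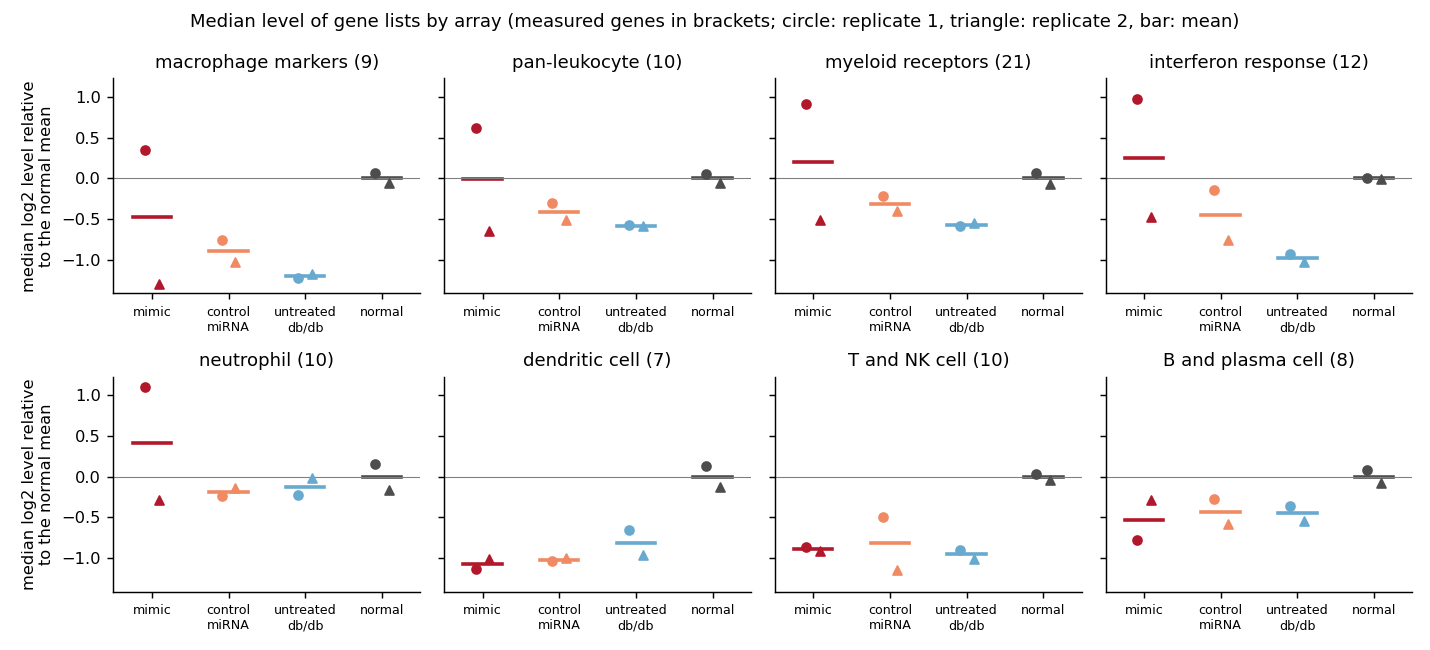
Median level of 8 gene lists on each array (vertical axis, log2 relative to the mean of the normal arrays) in the mimic, control miRNA, untreated db/db and normal groups (horizontal axis, circle for replicate 1, triangle for replicate 2, bar for the mean); the number of measured genes is in brackets. The untreated db/db arrays lay below both normal arrays for every list shown except the neutrophil list, and mimic replicate 1 was high for the macrophage, pan-leukocyte, myeloid receptor, interferon and neutrophil lists but not for the dendritic, T and B cell lists.

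Genes that govern or accompany macrophages were given by further lists. Of 11 measured genes of macrophage growth and fate, 1 passed in each comparison with normal mice. It was Irf5, a transcription factor of inflammatory macrophages, which was lower in all 3 db/db groups. Its level was -1.87 and -2.51 after the mimic, -2.55 and -2.65 after control miRNA, -2.29 and -2.63 in untreated db/db mice, and -1.13 and -0.79 in normal mice. Its change between untreated db/db and normal mice was -1.51 ± 0.25 (adjusted p = 0.0378). Spi1, the gene of the myeloid factor PU.1, was not measured.

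Of 21 measured myeloid receptor and signalling genes, 1 was lower in untreated db/db mice, the leukocyte receptor Cd84, and 20 of 21 lay below 0 (median -0.57). Cd84 was not well above background on either untreated array and was at least 1.43-fold lower there than in normal mice, where 1 of 2 arrays lay above background (adjusted p = 0.0484). Clec7a, the beta-glucan receptor Dectin-1, gave -0.59 (adjusted p = 0.118) in the same comparison. Of 9 measured resident macrophage genes of 15, 0 passed in untreated db/db mice (median -0.55). Mertk, a receptor for the uptake of dying cells, was higher after the mimic than in normal mice (change 0.51, adjusted p = 0.0496). Its level was 0.57 and 0.39 after the mimic and 0.41 and 0.42 in untreated db/db mice. It was 0.38 and 0.31 after control miRNA and -0.01 and -0.06 in normal mice. Axl, a receptor of the same family, gave 0.46 between mimic and normal mice (adjusted p = 0.235). Its level was 2.63 and 1.97 after the mimic and 2.53 and 2.52 in untreated db/db mice. It was 2.61 and 2.29 after control miRNA and 1.88 and 1.80 in normal mice.

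Of 10 monocyte genes 0 passed in untreated db/db mice and Ace was lower after the mimic than in normal mice (change -2.14, adjusted p = 0.0335), beside -2.08 after control miRNA (adjusted p = 0.0657) and -2.07 in untreated db/db mice (adjusted p = 0.0540). Ace encodes the angiotensin-converting enzyme, which kidney tubules express as well. Against normal mice the 10 genes had a median change of -0.19 in untreated db/db mice, with 6 below 0. After the mimic the median was 0.73, with 3 below 0. Ccr2, the chemokine receptor of classical monocytes, gave -1.47 in untreated db/db against normal mice (adjusted p = 0.109). Of 8 measured activation genes Hmox1, the haem oxygenase, was higher after the mimic (change 0.68, adjusted p = 0.0449), and its level was 2.76 and 2.90 after the mimic against 2.13 and 2.17 in normal mice. Spp1, the gene of osteopontin, gave 2.49 there (adjusted p = 0.0602), with 9.20 and 7.12 after the mimic against 5.93 and 5.40 in normal mice. Its level was 7.07 and 6.93 after control miRNA and 7.30 and 6.89 in untreated db/db mice. Against normal mice the 8 activation genes had a median change of -0.23 in untreated db/db mice, with 6 below 0. After the mimic their median was 0.19, with 4 below 0. Of 7 measured chemoattractant genes 6 had a change below 0 between untreated db/db and normal mice (median -1.10). Cxcl12, a stromal chemokine, was higher in untreated db/db than in normal mice (change 0.91, adjusted p = 0.0272). Ccl12, a monocyte chemoattractant, was not well above background in untreated db/db mice and at least 6.25-fold lower there by value (adjusted p = 0.105).

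Lysosomal genes did not go down with the macrophage markers. Of 13 genes Hexa, a hexosaminidase subunit, was higher in all 3 db/db groups, with changes of 1.18 (adjusted p = 0.00995) after the mimic, 1.00 (adjusted p = 0.0365) after control miRNA and 0.84 (adjusted p = 0.0416) in untreated db/db mice against normal. The median of the 13 was -0.05 in untreated db/db mice, close to that of all genes, and Ctsb, the protease cathepsin B, gave 0.31 (adjusted p = 0.351).

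Relatives of the members were measured for 12 of 17 genes. Flt3, a receptor tyrosine kinase of the Csf1r family that dendritic cell progenitors carry, was well above background on the 2 normal arrays and on 0 db/db arrays. It was at least 1.84-fold lower after the mimic, 2.03-fold after control miRNA and 2.20-fold in untreated db/db mice than in normal mice. It entered the test through the normal arrays alone, so a difference was built into its choice and no p is given. Ms4a4b, a T cell gene of the Ms4a7 family, was lower in untreated db/db mice (change -2.25, adjusted p = 0.0406) and after the mimic (change -1.75, adjusted p = 0.0457). Ms4a4c, of the same family, was higher after the mimic than in normal mice (change 2.28, adjusted p = 0.00617). Its level was 8.44 and 7.84 after the mimic and 6.79 and 6.58 in untreated db/db mice. It was 6.73 and 6.59 after control miRNA and 5.71 and 6.01 in normal mice. Lyz1, the paralog of Lyz2, gave 2.76 and -0.24 after the mimic, 0.47 and 0.27 after control miRNA, 0.17 and 0.31 in untreated db/db mice, and 0.76 and 0.92 in normal mice. It was the gene nearest to Lyz2 in pattern, with a root mean square difference of 0.065, and whether the Lyz2 probes also bind Lyz1 mRNA was not tested.

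Markers of other immune cells were measured beside the macrophage genes. Of 7 measured dendritic cell genes, those past the threshold were Flt3 and Clec9a, and both entered the test through the normal arrays alone. Clec9a, a receptor for dead cells, was well above background on 0 db/db arrays and was at least 2.41-fold lower in untreated db/db than in normal mice. Of 10 measured T and NK cell genes, 0 passed in untreated db/db mice (median -0.95). After the mimic 3 were lower than in normal mice, beside 5.93% of all genes. They were Cd5 (at least 2.47-fold, adjusted p = 0.0121), Cd3e (adjusted p = 0.0292) and Cd3d (adjusted p = 0.0418). For all 3 the untreated db/db arrays also lay below both normal arrays. Cd3d gave -3.42 and -3.50 after the mimic, -3.48 and -3.61 in untreated db/db mice, and -2.60 and -2.43 in normal mice. Of 8 measured B and plasma cell genes, Cd22, an inhibitory B cell receptor, was lower in untreated db/db mice (change -0.68, adjusted p = 0.0436) and after the mimic (adjusted p = 0.0290). The median changes of these 3 lists after the mimic were -0.86, -0.99 and -0.66.

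Markers of tissue around the kidney and of blood also differed between arrays. The 9 measured adipocyte genes had a median, relative to the normal mean, of -1.79 and -3.60 after the mimic, -0.76 and -3.41 after control miRNA, -4.39 and -3.97 in untreated db/db mice, and 1.80 and -1.80 in normal mice. Of these, 1 passed, Pck1, which tubules also express and which was higher after the mimic than in normal mice (change 2.28, adjusted p = 0.00828). Pck1 stood at 8.36 and 8.06 after the mimic and 7.03 and 7.01 after control miRNA. It stood at 7.17 and 6.99 in untreated db/db mice and 5.55 and 6.31 in normal mice. Cfd, the adipose gene adipsin, gave -1.71 and -3.97 after the mimic, 0.64 and -4.09 after control miRNA, -5.10 and -5.78 in untreated db/db mice, and 5.25 and 1.10 in normal mice. Normal replicate 1 was above normal replicate 2 for fat genes. It was above it by 0.58 for Cd14, 0.42 for Cd68, 0.34 for Mrc1, 0.14 for Adgre1, 0.13 for Csf1r, 0.07 for Itgam and 0.04 for Ms4a7, and below it by value for Aif1 (-0.02) and Lyz2 (-0.21).

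The 7 measured urothelial genes summed to 11.7 and 11.1 after the mimic, 14.5 and 9.81 after control miRNA, 9.71 and 9.45 in untreated db/db mice, and 22.8 and 13.9 in normal mice, and 0 passed. The 6 measured red cell genes summed to 339.2 and 9.47 after the mimic, 245.0 and 110.1 after control miRNA, 168.3 and 248.7 in untreated db/db mice, and 12.3 and 21.3 in normal mice, and 0 passed. Fibroblast genes summed to 13.2 to 26.0 on all 8 arrays with 0 of 8 passing. Of 8 endothelial genes, Tek, a receptor for angiopoietins (change 1.10, adjusted p = 0.0162), Ehd3 (change 1.04, adjusted p = 0.0164) and Eng (change 0.71, adjusted p = 0.0360) were higher in untreated db/db than in normal mice. They made 3 of 8, beside 278 of all 22368 genes called higher. Against normal mice 3 of the 8 passed as higher after control miRNA and 2 after the mimic, beside 151 and 681 of all genes. Of 10 kidney epithelial genes 0 passed in untreated db/db mice. The part of these tissues in the macrophage values was not tested.

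The 6 genes with a pattern nearest to Csf1r probe 1 over the 8 arrays lay at root mean square differences of 0.071 to 0.125 on the log2 scale. They were an unnamed transcribed region of chromosome 1, then Arhgap26, H2ac18, Akr1cl, Cmtm6 and Tasor, none of which is in a list used here. For Ms4a7 the nearest were at 0.205 to 0.231 and the first of them was Cxcr6, a chemokine receptor of lymphocytes. For Lyz2 and Aif1, chosen after their values were seen, the nearest genes after Lyz1 were Myo1g, Sirpb1b and Fpr2 for Lyz2, and Oas1a, Tnfsf10 and Ly6f for Aif1. Oas1a belongs to the interferon-response list.

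Promoters were searched because several of these genes are known targets of the myeloid factor PU.1. The sequences, from the RefSeq promoter table on GRCm38.p6, hold the bases just before and after the gene start, and cover 7 of the 10 members; Csf1r and Cd14 were not searched and Adgre1 had no match. The letters GAGGAAGT, on either strand, were in 3.20% of 32851 promoters and in 0 of 7 members. Their core AGGAAG, which GAGGAAGT contains, was in 35.4% of promoters and in 3 of 7 members, Itgam, Lyz2 and Mrc1. A window around 1 match is shown for each of the 3 on the gene's strand, at chr7:128062537-128062582 for Itgam, chr10:117282346-117282391 (minus strand) for Lyz2 and chr2:14229358-14229403 for Mrc1, with the core or its reverse complement in capitals.
Itgam promoter: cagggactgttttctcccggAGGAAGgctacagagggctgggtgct
Lyz2 promoter: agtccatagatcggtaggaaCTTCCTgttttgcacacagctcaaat
Mrc1 promoter: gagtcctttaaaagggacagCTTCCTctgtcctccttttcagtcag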

How the data were processed

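RNA of 8 whole kidneys was read on 1-colour Agilent arrays from Cy3-labelled cRNA, per the labels' protocols. Per the file headers and the submitters' processing notes, the deposited intensity of each spot comes from Agilent Feature Extraction 12.0.3.1, background-subtracted and detrended, with spots at background set to small positive values. Per the file headers, the other deposited columns are quality calls and probe annotation on mm9. The deposited table holds a ratio, found from its values to be the scaled intensity over the probe's median on 8 arrays; it served as an alternative.

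Intensities were divided by the array's 75th percentile and put on the log2 scale. Of 56605 probes, 33639 were kept: those well above background on both arrays in 1 or more groups. A gene's probe with the highest mean level gave 22368 genes. Group means were compared with limma 3.58.1 in R 4.3.3 (4 residual and 2.23 prior degrees of freedom), p adjusted by Benjamini-Hochberg over all genes or probes, threshold 0.05. A gene not well above background on both arrays of a group has a fold of "at least", from the lowest signal well above background on each array. Groups follow the source labels; no n exceeds 2 mice. The arrays' number limits precision.

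Members and 20 further lists were chosen with earlier results of these data known. Named were all members and, per list, up to 4 genes passing with the largest change, then those with the smallest adjusted p until 2 were named. Gene names follow RefSeq (GRCm38.p6); 12662 probes kept the array's name. A few genes that the naming rule picks are not reported here.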

Additional observations from a re-analysis of the deposited data

How the results depend on the processing

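The counts of members and of all genes called, the median of the members and the change of each member were recomputed under up to 17 other settings; the further lists, the CA-repeat set, the nearest genes and the promoter counts were not. Members that passed as lower in untreated db/db against normal mice numbered 2, and 1 with no filter on dim probes (Csf1r lost) and 6 with only the 4 arrays compared. After control miRNA they numbered 2, and 0 with no filter, 1 with the mean of a gene's probes (Csf1r lost), 1 from the deposited table and 0 with the replicate block. After the mimic they numbered 3, and 0 with only the 4 arrays compared. With 1 array left out at a time they ranged over 0 to 6 (untreated db/db), 0 to 5 (control miRNA) and 1 to 6 (mimic), and over 0 to 6 for the mimic against control miRNA and against untreated db/db mice. Leaving out CA-repeat probes, a setting chosen after seeing the data, left Itgam untested and gave 2 after the mimic. Under the other settings the count was within 1.5 times that reported.

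The genes called in all moved too. Against normal mice they numbered 783 in untreated db/db mice, 418 after control miRNA and 2008 after the mimic. Without the dim-probe filter they numbered 292, 127 and 1149, and with only the 4 arrays compared 2376, 955 and 22. With normexp background correction the untreated and control miRNA counts were 2140 and 1136, and with the replicate block 473 and 184. With 1 array left out they ranged over 19 to 3340, 17 to 2552 and 322 to 6421. The replicate numbers of the labels are shared by the groups, but deviations of same-numbered arrays correlated between groups at -0.019 to 0.159 and not above 0.1 for every pair, so the numbers were not taken to pair the mice.

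Directions turned for small changes and, where a mimic array was left out, for larger ones. With the mean of a gene's probes, Csf1r stood at -0.0046 between control miRNA and untreated db/db mice and at -0.0035 between mimic and untreated db/db mice, Cd14 at 0.17 between control miRNA and untreated db/db mice, and Cd68 at 0.14 between mimic and normal mice. Cd68 stood at 0.032 with quantile normalization and 0.025 in the deposited table there, and Ms4a7 at 0.0052 between mimic and untreated db/db mice with normexp. With 1 array left out, the changes of mimic against control miRNA ranged over -0.10 to 0.40 for Csf1r, -0.18 to 1.65 for Aif1, -0.40 to 0.85 for Cd68, -0.27 to 1.54 for Adgre1, -0.30 to 0.41 for Mrc1, -0.16 to 3.25 for Cd14 and -0.76 to 2.44 for Lyz2. Those of mimic against untreated db/db mice ranged over -0.039 to 0.465 for Csf1r, -0.096 to 0.067 for Ms4a7, -0.11 to 1.14 for Cd68, -0.17 to 3.24 for Cd14 and -0.54 to 2.66 for Lyz2. Those of mimic against normal mice ranged over -1.49 to 0.34 for Aif1, -0.65 to 0.61 for Cd68, -1.30 to 0.51 for Adgre1, -0.24 to 3.17 for Cd14 and -1.22 to 1.98 for Lyz2. Cd14 ranged over -0.36 to 0.22 between untreated db/db and normal mice, -0.37 to 0.21 between control miRNA and normal mice and -0.091 to 0.069 between control miRNA and untreated db/db mice, where Mrc1 ranged over -0.22 to 0.49. The cause was not tested. Signal over background limits Cd163, which no setting with the filter measured.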
